A study of Mus musculus with 14 samples.

Results

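The complement genes described here were chosen by name: C1ra, C1rl, C2, C3, C4b, Cfb, Cfd, Serping1 and Cd55. Of these 9 genes, 7 have a probe set of their own in the expression table used here, among 19938 gene symbols with such a probe set, while C3 and Cfd were not analysed here. Each of the 7 genes was represented by a single probe set, so no choice between rows had to be made. The cells were primary hepatic stellate cells (HSCs) from healthy Balb/cByJ mice, labelled BalbC, isolated on a density gradient and cultured on plastic in medium with fetal bovine serum, where they activate spontaneously into myofibroblast-like cells. Unattached cells were washed away shortly after seeding, and this point started the clock. The untreated groups were Ctrl4h (3 arrays), Ctrl16h (2 arrays) and Ctrl64h (3 arrays), named for the 4, 16 or 64 h of culture. VPA4h and VPA64h, with 3 arrays each, were kept for 4 or 64 h in 2.5 mM valproic acid (VPA), an inhibitor of histone deacetylases. The 14 arrays stand for separate isolations within a group, numbered 1 to 3. All cells share the strain and the adherent culture, and cells taken directly from the liver are not part of the comparison.

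Complement is a set of plasma proteins and receptors that marks microbes and damaged cells. The liver makes most of the circulating proteins, and other cells produce some of them locally. In the classical pathway the proteases C1r and C1s are bound to the recognition molecule C1q. C1r activates C1s, which cleaves C4 and C2, whose fragments together form an enzyme that cleaves C3. The alternative pathway builds a comparable enzyme from C3 and factor B, encoded by Cfb, with factor D (Cfd) as the activating protease. Serping1 encodes C1 inhibitor, which blocks C1r and C1s, and Cd55 encodes decay-accelerating factor, which takes apart the C3-cleaving enzymes on cell membranes.

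Among the 7 genes the C1 protease genes allow neighbours in the genome to be compared. In the RefSeq gene order of the mouse GRCm38.p6 assembly, C1rl, C1ra and C1s1 follow each other on chromosome 6 with 0 protein-coding genes between them, and C2 and Cfb lie side by side on chromosome 17, which also carries C4b. RefSeq promoter windows were given for 3 of the 7 genes, C1ra, C1rl and Cd55, and for C1s1. The 250 bases before the annotated start of the chromosome 6 neighbours are shown because these adjacent genes differed in their response, as described below. They lie at chr6:124492863-124493112 (C1rl, plus strand), chr6:124512371-124512620 (C1ra, plus strand) and chr6:124542360-124542609 (C1s1, minus strand), each written 5′ to 3′ in the direction of its gene, with a match to the C/EBP motif in capitals.
C1rl: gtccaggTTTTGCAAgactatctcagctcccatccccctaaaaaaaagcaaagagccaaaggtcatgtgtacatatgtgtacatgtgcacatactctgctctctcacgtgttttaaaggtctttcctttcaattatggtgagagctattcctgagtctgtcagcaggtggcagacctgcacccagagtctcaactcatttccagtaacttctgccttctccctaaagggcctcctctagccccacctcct
C1ra: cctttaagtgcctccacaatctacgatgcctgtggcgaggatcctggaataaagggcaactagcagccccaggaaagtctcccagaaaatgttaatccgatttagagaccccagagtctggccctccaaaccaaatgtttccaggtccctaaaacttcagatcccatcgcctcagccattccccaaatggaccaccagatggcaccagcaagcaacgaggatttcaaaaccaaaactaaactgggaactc
C1s1: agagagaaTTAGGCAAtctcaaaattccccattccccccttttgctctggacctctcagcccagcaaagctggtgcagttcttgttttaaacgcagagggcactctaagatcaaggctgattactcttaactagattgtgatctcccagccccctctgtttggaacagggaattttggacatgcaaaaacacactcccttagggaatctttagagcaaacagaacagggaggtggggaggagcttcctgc
The motifs searched on both strands were TTCNNNGAA for STAT factors, the interferon-stimulated response element (GAAA, any 2 bases, GAAA), NF-kB (GGG, any 2 bases, TTTCC), TTGCNNAA for C/EBP, CCAAT and TATAAA. The C1rl window held 1 C/EBP match, TTTTGCAA on the given strand, from base -243 to base -236, and the C1s1 window shown 1, TTAGGCAA, from -242 to -235, both reading as the motif on the opposite strand. C1s1 has a second annotated start, and its window, chr6:124542322-124542571, held none of the 6 motifs. The C1ra and Cd55 windows held none either. Of 32851 promoter windows of this length 9.56% held the C/EBP letters, 7.02% the STAT, 2.98% the interferon, 1.41% the NF-kB, 33.8% the CCAAT and 12.4% the TATAAA letters. These matches are descriptions of the letters and not binding sites.

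The values are log2 expression levels after RMA, a procedure that removes background, equalises the intensity distributions of the arrays and combines the probes of a probe set. A change is therefore relative to the other transcripts on the array, and since probes differ between genes, the rank of a gene's signal on the array is given as a signal level only, not as a transcript amount. Array medians lay between 6.34 and 6.41. The words rose and fell are kept for genes to which limma gave an adjusted p under 0.05 (Benjamini-Hochberg over 23410 probe sets) and a change of at least 2-fold. Errors are SD for group means and SE for log2 changes. The cultures are bulk samples, so fewer cells of a type and less RNA per cell cannot be told apart. As a check of the cell type, the summed linear level of 17 stellate marker genes, Dcn and Ecm1 giving the highest signals, was 41700 to 43500 in Ctrl4h, 29500 to 31000 in Ctrl16h, 36200 to 38800 in Ctrl64h, 42900 to 46200 in VPA4h and 30100 to 33500 in VPA64h. This sum is weighted towards the brightest genes, and the 17 moved in both directions in control culture. By 16 h 1 rose (Acta2) and 5 fell, and between 4 and 64 h 4 rose and 7 fell, Ecm1 among them. The sum is therefore not a measure of the number of stellate cells. Arrays give no true zero, and no marker could be read as absent.

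Between 4 and 16 h of control culture 5 of the 7 complement genes fell, C1ra, C2, C4b, Cfb and Serping1, and 0 rose. Of all tested probe sets 1.21% fell and 0.705% rose in this interval. At an unadjusted p under 0.05, 0 of the 7 were higher, and the one-way test over the 5 groups that the study's methods name, with the same fold limit, gave 0 that rose and 5 that fell. That test gives a probe set the same p for every comparison. Its counts therefore differ between comparisons by the fold limit alone and are no separate test of each. The median log2 change of the 7 genes was -1.27, against -0.01 over all tested probe sets. The remaining C1rl and Cd55 differed by 0.12 ± 0.12 (adjusted p = 0.596) and -0.23 ± 0.13 (adjusted p = 0.279). The plot of levels by array shows the 5 genes dropping together.

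**Figure D1:**
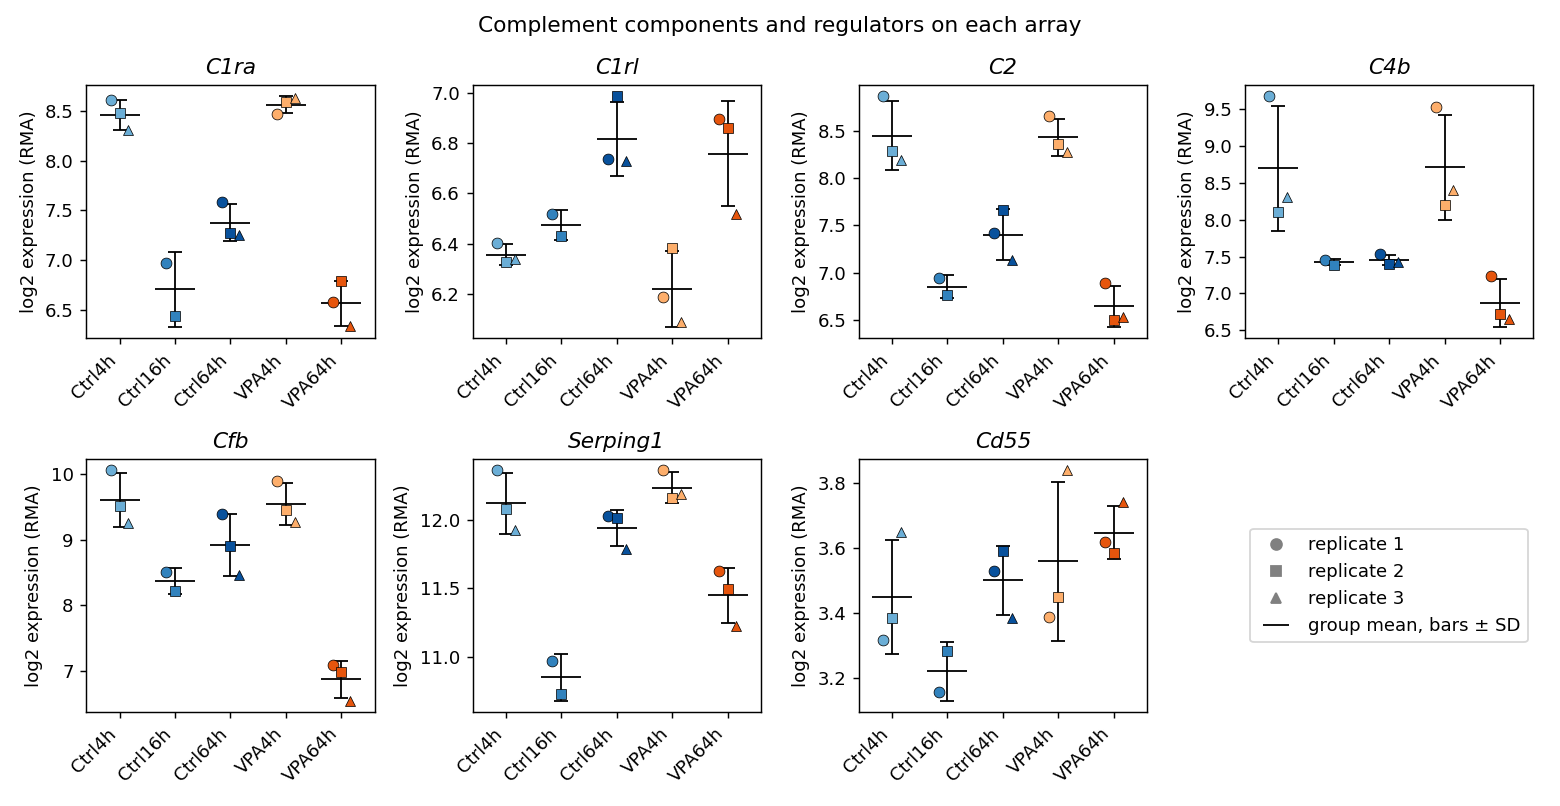
Log2 expression (RMA) of the 7 complement genes on each of the 14 arrays, by group on the x axis; marker shapes give the replicate number, horizontal lines the group means and bars ± SD, and each panel has its own y range. C1ra, C2, C4b, Cfb and Serping1 fell between Ctrl4h and Ctrl16h, and the 3 VPA64h arrays of Cfb, between 6.55 and 7.08, lay below all other arrays.

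The protease genes of the C1 complex act first in the classical pathway. C1ra read 8.61, 8.48 and 8.30 in the Ctrl4h arrays, 6.97 and 6.44 in Ctrl16h, and 7.59, 7.28 and 7.25 in Ctrl64h. It was thus highest at 4 h, lowest at 16 h and in between at 64 h, with no overlap between the 3 control groups. The fall by 16 h was 1.76 ± 0.16 on the log2 scale, or 3.39-fold (adjusted p = 1.73e-06). From 16 to 64 h the level was 0.67 ± 0.16 higher (adjusted p = 0.00315), under the 2-fold limit, and over the whole interval C1ra fell by 1.09 ± 0.14 (adjusted p = 8.53e-06). A second probe set is shared by C1ra and its close paralogue C1rb, and the mean level of that shared probe set went from 10.61 in Ctrl4h to 9.28 in Ctrl16h, a fall of 1.33 ± 0.12 (adjusted p = 2.35e-06). Signals of C1ra and C1rb are not separated there.

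C1s1, which encodes the partner protease C1s, followed a similar course. Its levels were 8.78, 8.26 and 8.08 in Ctrl4h, 6.34 and 6.29 in Ctrl16h, and 7.41, 7.37 and 7.28 in Ctrl64h. It fell by 2.06 ± 0.17 by 16 h (adjusted p = 6.82e-07) and rose by 1.04 ± 0.17 after it (adjusted p = 0.000143). C1rl, a C1r-like protease gene next to C1ra, did not share this course. Its levels were 6.40, 6.33 and 6.34 in Ctrl4h, 6.52 and 6.43 in Ctrl16h, and 6.74, 6.98 and 6.73 in Ctrl64h, a range far narrower than that of its neighbours. The 64 h arrays were all above the 4 h arrays, by 0.46 ± 0.11 (adjusted p = 0.00232), under the 2-fold limit.

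C2 and C4b encode the substrates of C1s. C2 read 8.86, 8.28 and 8.19 in Ctrl4h, 6.94 and 6.77 in Ctrl16h, and 7.42, 7.67 and 7.13 in Ctrl64h. It fell by 1.59 ± 0.19 by 16 h (adjusted p = 2.47e-05) and was 0.55 ± 0.19 higher at 64 than at 16 h (adjusted p = 0.0308). Its fall over 64 h, 1.04 ± 0.17 (adjusted p = 9.41e-05), lay just past the 2-fold limit and was 0.83 without Ctrl4h replicate 1 and 0.90 without Ctrl64h replicate 3.

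C4b read 9.67, 8.10 and 8.31 in Ctrl4h, 7.45 and 7.39 in Ctrl16h, and 7.53, 7.41 and 7.43 in Ctrl64h. Replicate 1 of Ctrl4h stood apart from its group, while the later arrays lay close together. C4b fell by 1.27 ± 0.39 by 16 h (adjusted p = 0.0278) and by 1.24 ± 0.35 by 64 h (adjusted p = 0.00638), and the difference between 16 and 64 h was 0.03 ± 0.39 (adjusted p = 0.953). Without Ctrl4h replicate 1 the differences were -0.79 (adjusted p = 0.0951) and -0.75 (adjusted p = 0.0329), neither past both limits, and without either Ctrl16h array the adjusted p of the first was 0.124 or 0.126. C4a is a near-identical copy of C4b, and how far each probe set separates them is uncertain. C4a gave the same high replicate, 7.63 beside 6.53 and 6.43 in Ctrl4h.

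Cfb, the factor B gene of the alternative pathway, read 10.06, 9.51 and 9.25 in Ctrl4h, 8.51 and 8.22 in Ctrl16h, and 9.40, 8.90 and 8.46 in Ctrl64h. It fell by 1.24 ± 0.26 by 16 h (adjusted p = 0.00282). The Ctrl64h arrays spread widely and overlapped both earlier groups, with 0.55 between 64 and 16 h (adjusted p = 0.104) and -0.69 ± 0.23 between 64 and 4 h (adjusted p = 0.0203), both under 2-fold.

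Serping1, the C1 inhibitor gene, had a mean signal above that of 99.0% of tested probe sets. It read 12.36, 12.08 and 11.92 in Ctrl4h, 10.97 and 10.73 in Ctrl16h, and 12.02, 12.01 and 11.79 in Ctrl64h. Both 16 h arrays were low and the 64 h arrays overlapped those at 4 h. It fell by 1.27 ± 0.14 by 16 h (adjusted p = 1.07e-05) and rose by 1.09 ± 0.14 after it (adjusted p = 1.58e-05), which leaves -0.18 ± 0.13 between 64 and 4 h (adjusted p = 0.237). Of the 7 genes Serping1 alone rose between 16 and 64 h, where 4.52% of all probe sets rose and 2.08% fell. None of the 7 fell then, also at an unadjusted p under 0.05 (0 of 7) and by the methods' test (0). Without Ctrl16h replicate 2 the rise was 0.97, just under the limit. Since both intervals share the 2 Ctrl16h arrays, a low reading there moves both. The course of a fall followed by a rise was found for 0.517% of tested probe sets, and among the complement genes for Serping1, C1s1 and Colec10.

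Cd55, the membrane regulator, lay near the low end of the array, with a mean signal above that of 3.47% of tested probe sets. Its levels ran from 3.16 to 3.84 over the 14 arrays and did not pass the test in any comparison. At this level a change in Cd55 may not be detectable. Over the whole interval from 4 to 64 h, 3 of the 7 genes fell (C1ra, C2 and C4b) and 0 rose, with 3.71% of all probe sets falling and 6.68% rising. At an unadjusted p under 0.05, 4 were lower and 1, C1rl, was higher, and the methods' test gave 3 that fell and 0 that rose.

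The other complement genes came from 5 lists covering recognition molecules and proteases, the terminal pathway, soluble regulators, membrane regulators and receptors, 46 genes with a probe set in all. By 16 h 7 of the 46 fell and 0 rose, with a median log2 change of -0.09, where 1.21% of all probe sets fell and 0.705% rose. At an unadjusted p under 0.05 11 were lower and 2 higher, and the methods' test gave 7 and 0. Of 14 recognition and protease genes 4 fell, C1s1, Fcna, Colec10 and Colec11. Colec10 and Colec11 encode collectins, sugar-binding proteins that start the lectin pathway. Colec10 read 10.52, 10.57 and 10.36 in Ctrl4h and 7.13 and 7.18 in Ctrl16h, a 10.0-fold fall (3.33 ± 0.27 on the log2 scale, adjusted p = 6.49e-07). It then rose by 2.39 ± 0.27 (adjusted p = 4.34e-06) to 8.93, 10.19 and 9.52 at 64 h, the widest spread among its groups. Colec11 fell by 2.26 ± 0.18 by 16 h (adjusted p = 5.09e-07) and stood at 6.96, 7.27 and 6.59 in Ctrl64h, with no rise. Fcna, a ficolin of the same pathway, fell in both intervals, by 1.42 ± 0.13 (adjusted p = 1.94e-06) and 1.11 ± 0.13 (adjusted p = 6.4e-06).

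In the terminal pathway, which forms the membrane pore, C6 and C7 of 7 genes fell by 16 h, by 1.51 ± 0.24 (adjusted p = 0.000318) and 1.02 ± 0.20 (adjusted p = 0.00157). The fall of C7 passed the fold limit in 11 of 16 alternatives and was 0.91 without Ctrl4h replicate 1, 0.96 without Ctrl4h replicate 3 and 0.94 without Ctrl16h replicate 1. Of 7 soluble regulators Clu, encoding clusterin, fell by 1.15 ± 0.12 (adjusted p = 6.24e-06). Of 8 membrane regulators 2 rose over the 64 h, Cd59a and Cd59b, which encode the protein that blocks the pore, and the median log2 change of the 8 was -0.07. Cd59a read 4.47, 4.34 and 4.58 in Ctrl4h, 5.08 and 4.69 in Ctrl16h and 7.74, 7.12 and 7.49 in Ctrl64h, a 7.94-fold rise over 64 h (2.99 ± 0.16, adjusted p = 3.23e-10). Cd59b rose by 1.09 ± 0.12 (adjusted p = 1.47e-06), or by 0.90 with arrays centred on housekeeping genes, under the limit. Its signal was low, with means of 4.34 in Ctrl4h, 4.23 in Ctrl16h and 5.43 in Ctrl64h, below the array medians. The other 6 membrane regulators did not pass both limits in any comparison. Of 10 receptor genes 1 fell between 16 and 64 h, C1qbp, by 1.01 ± 0.13 (adjusted p = 1.25e-05). It lay at the fold limit, with a fall of 0.85 without Ctrl16h replicate 2 and 0.92 without Ctrl64h replicate 2. In all, 4 of the 46 rose and 2 fell between 16 and 64 h, where 4.52% of all probe sets rose and 2.08% fell. Between 4 and 64 h 2 of the 46 rose and 6 fell, where 6.68% of all probe sets rose and 3.71% fell. The 2 of 46 that rose over the whole interval are thus not above the general share.

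The summed linear level of markers of other liver cell types moved with some of these changes, and their part in the results was not tested. For 20 sinusoidal endothelial genes the sum ranged from 5570 to 6700 in Ctrl4h and from 2980 to 3250 in Ctrl16h, for 18 hepatocyte genes from 1710 to 2510 and from 1270 to 1900, for 19 Kupffer cell and macrophage genes from 1260 to 2160 and from 1110 to 1200, and for 14 lymphocyte genes from 795 to 1260 and from 614 to 687. By 16 h 1 of the 18 hepatocyte genes fell (Trf), 1 of the 20 endothelial genes (Plvap), 0 of the 19 macrophage genes and 1 of the 14 lymphocyte genes (Ccl5). In Ctrl64h the sums were 3190 to 3790, 1090 to 1860, 1520 to 2470 and 475 to 503, in the same order. Between 16 and 64 h 2 of the 19 macrophage genes rose, Lyz2 (1.79 ± 0.54, adjusted p = 0.0143) and Ctss (1.12 ± 0.44, adjusted p = 0.0486). The endothelial gene Emcn also rose, while the hepatocyte gene Apoa2 and the lymphocyte gene Ccl5 fell. Of all probe sets 4.52% rose and 2.08% fell then. Plvap, the brightest endothelial marker, weighs most in the endothelial sum. By 16 h Plvap fell by 1.36 ± 0.15 (adjusted p = 1.19e-05), while the median log2 change of the 20 endothelial genes was -0.28. This median was -0.23 for the macrophage, -0.09 for the hepatocyte and -0.01 for the lymphocyte genes, and -0.01 over all tested probe sets. Replicate 1 gave the highest value of C4b, Cfb and Serping1 in all 5 groups and of C2 in 4 of 5. For C1ra and C1rl it did so in 3 of 5 groups and for Cd55 in 0. Replicate 1 also had the highest sum of the macrophage and of the lymphocyte genes in all 5 groups. The endothelial sum was highest in replicate 1 in 3 of 5 groups and the stellate sum in 2. For the hepatocyte and the adipocyte sums this held in 1 group each. For the bile duct, mesothelial and portal fibroblast genes it held in 0.

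**Figure D2:**
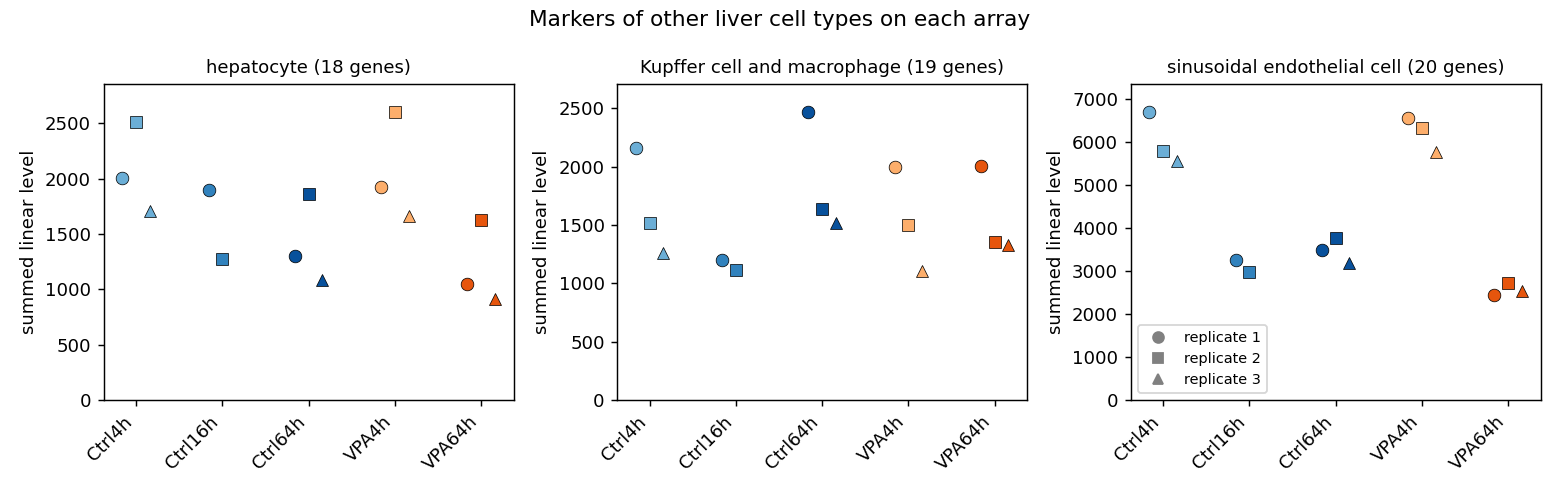
Summed linear level (2 to the power of the RMA value, in array intensity units) of hepatocyte, Kupffer cell and macrophage, and sinusoidal endothelial marker genes on each array, by group; marker shapes give the replicate number. The macrophage sum was highest in replicate 1 in each of the 5 groups, and the endothelial sum was at least 5570 on all arrays of both 4 h groups and at most 3790 on all others.

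No complement gene of the 7 passed the test after 4 h of VPA. Cfb read 9.89, 9.45 and 9.28 in VPA4h, beside 10.06, 9.51 and 9.25 in Ctrl4h, and the arrays of both groups overlapped for all 7 genes. limma called 0 of 7 in either direction (lowest adjusted p = 0.489), and 0 had an unadjusted p under 0.05. The methods' test could only give 0 here, since no difference reached the fold limit. Of all probe sets 0.555% fell and 0.867% rose. The log2 differences lay between -0.14 and 0.11. The 95% interval was -0.57 to 0.43 for Cfb, -0.21 to 0.40 for C1ra and -0.16 to 0.38 for Serping1, and for C4b -0.72 to 0.75, in the fit without pairing. Replicate 1 of C4b was high in both groups, and between arrays of the same number C4b differed by -0.15, 0.09 and 0.10. Of the other 46 complement genes 0 rose and 0 fell at 4 h, with 1 higher and 6 lower at an unadjusted p under 0.05 and 0 and 0 by the methods' test. The lowest adjusted p that limma gave among the 46 was 0.0353, for a membrane regulator lower by less than 2-fold.

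After 64 h of VPA Cfb showed the largest difference of the 7 genes. It read 7.08, 6.98 and 6.55 in VPA64h, beside 9.40, 8.90 and 8.46 in Ctrl64h. All 3 treated arrays lay below every array of the other 4 groups. Cfb fell by 2.05 ± 0.23, or 4.13-fold (adjusted p = 1.2e-05), and without any one of the 6 arrays the fall was between 1.81 and 2.28. It was the 1 gene of the 7 that fell, where 1.14% of all probe sets fell and 1% rose. Without the fold limit, 4 of the 7 genes passed with a lower level and 0 with a higher one, beside 11.2% lower and 12.8% higher among all probe sets, and 0 of the 7 were higher at an unadjusted p under 0.05 as well.

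The other 3 of these 4 were C1ra, C2 and Serping1, each less than 2-fold lower. C1ra read 6.57, 6.78 and 6.33 in VPA64h, 0.81 ± 0.14 below Ctrl64h (adjusted p = 0.000617). The probe set shared with C1rb differed by -0.93 ± 0.11 (adjusted p = 1.79e-05). C2 read 6.89, 6.51 and 6.54, 0.76 ± 0.17 below Ctrl64h (adjusted p = 0.00423). Serping1 read 11.62, 11.50 and 11.23, 0.49 ± 0.13 below Ctrl64h (adjusted p = 0.00924), with an adjusted p of 0.0563 without VPA64h replicate 3.

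C4b read 7.24, 6.72 and 6.65 in VPA64h, below all 3 Ctrl64h arrays, and its difference of -0.58 ± 0.35 had an adjusted p of 0.257 (95% interval -1.32 to 0.15). With the replicate number as a block its adjusted p was 0.0953 in the fit of all groups and 0.0106 in a fit of these groups alone, an alternative chosen after seeing the data. C1rl (-0.06, adjusted p = 0.761) and Cd55 (0.15, adjusted p = 0.424) did not pass. Of the other 46 complement genes, Colec10 fell, by 1.09 ± 0.24 (adjusted p = 0.00371), with arrays at 8.38, 8.96 and 8.04 that overlapped the control range. Without Ctrl64h replicate 2 this difference was -0.76, and without VPA64h replicate 3 it was -0.88. Without the fold limit, 9 of the 46 passed with a lower level, among them C1s1 (-0.58), Cd59b (-0.57) and Cd93 (-0.91), and 1, Clu, with a higher one (0.36). Among all probe sets 11.2% were lower and 12.8% higher by this rule, and 1.14% fell and 1% rose with the fold limit. Cd59a, at 7.48, 7.13 and 7.17 in VPA64h, was within the range of Ctrl64h on all 3 arrays.

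**Figure D3:**
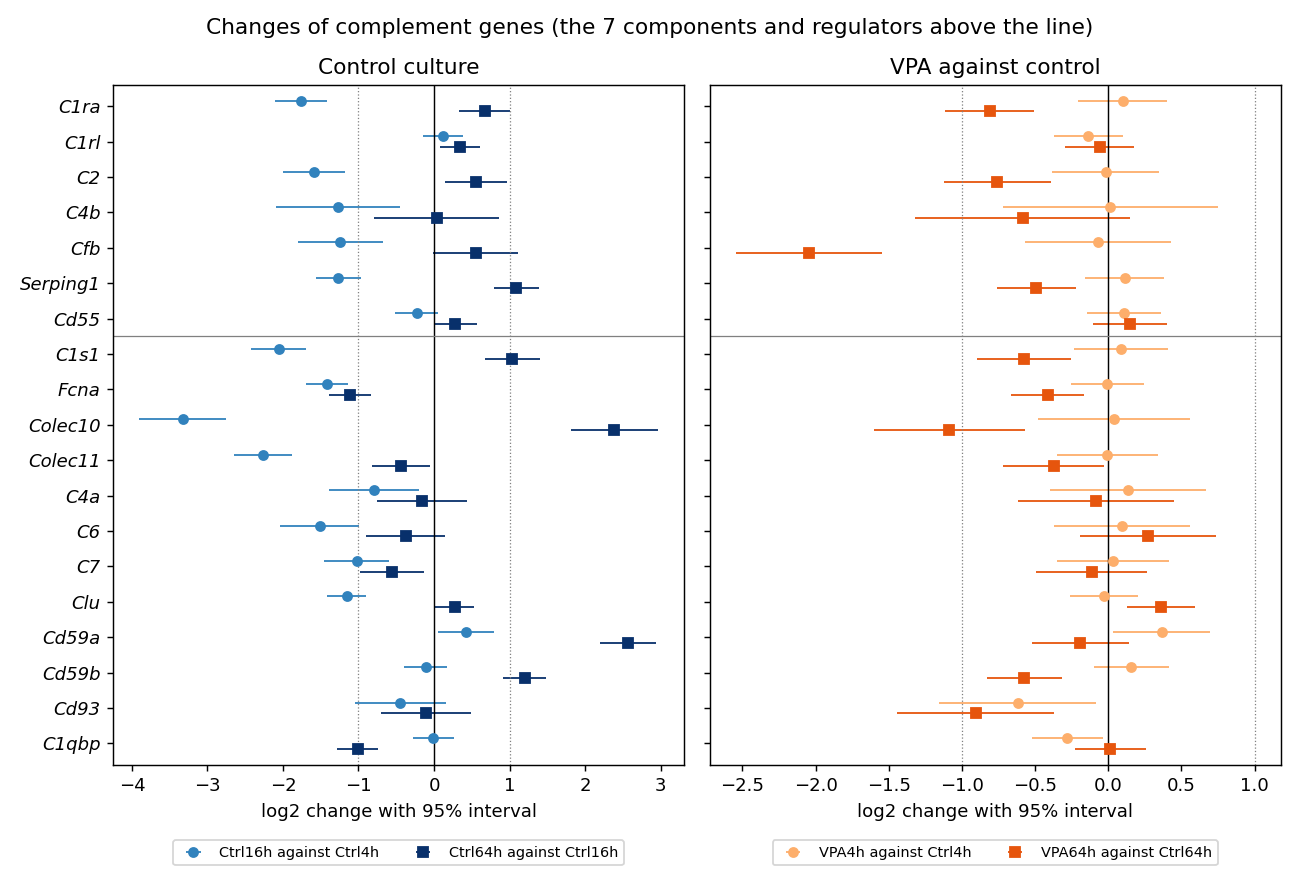
Log2 change with its 95% interval (x axis) for the 7 complement genes above the line and for the 12 other complement genes that passed both limits in any comparison below it; the left panel gives control culture from 4 to 16 h and from 16 to 64 h, the right panel VPA against control at 4 h and at 64 h, and dotted lines mark the 2-fold limit. Most plotted genes lie left of zero from 4 to 16 h, but the 12 were picked for passing a comparison, and 7 fell in this interval. Over all 46 other complement genes the median log2 change by 16 h was -0.09. All 7 intervals at 4 h of VPA span zero, and Cfb at 64 h of VPA lies at -2.05.

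The difference between the VPA effects at 64 and at 4 h was tested directly. For Cfb it was -1.98 ± 0.33 (adjusted p = 0.000661), the 1 gene of the 7 past both limits, where 1.7% of all probe sets fell and 0.893% rose, and without the fold limit 8.33% were lower and 7.54% higher. It was -0.91 ± 0.20 for C1ra (adjusted p = 0.00548), -0.60 ± 0.18 for Serping1 (adjusted p = 0.03, and up to 0.0831 under other settings) and -0.74 ± 0.24 for C2 (adjusted p = 0.051). For C4b it was -0.60 (adjusted p = 0.493). Without VPA64h replicate 2 the value of C1ra was -1.02 (adjusted p = 0.00326), past both limits.

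Within VPA-treated culture, from 4 to 64 h, C1ra, C2, C4b and Cfb fell, 4 of the 7 genes, where 2.29% of all probe sets fell and 5.26% rose. The falls were 2.00, 1.78, 1.84 and 2.67 on the log2 scale. Serping1 was 0.78 lower (adjusted p = 8.91e-05), under 2-fold. C1rl went the other way, 0.54 above VPA4h and 0.40 above Ctrl4h, both with an adjusted p under 0.05 but under 2-fold. Against the untreated cells at 4 h, which are also the reference of the control course, C1ra, C2, C4b and Cfb were lower in VPA64h by 1.90, 1.80, 1.83 and 2.74. Of all probe sets 2.93% fell and 6.54% rose in this comparison. The mean levels of these 4 genes in VPA64h were thus further from Ctrl4h than those in Ctrl64h, but for C4b the direct difference from Ctrl64h did not pass the test. These comparisons share arrays and are given side by side, not as independent counts. The VPA64h arrays overlapped those of Ctrl16h for C1ra and C2, whereas for C4b and Cfb all 3 lay below both Ctrl16h arrays.

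Among other cell types, VPA at 64 h went with a lower endothelial sum, 2450 to 2730 beside 3190 to 3790 in Ctrl64h. The ranges of the macrophage sums, 1330 to 2010 and 1520 to 2470, and of the hepatocyte sums, 914 to 1630 and 1090 to 1860, overlapped. Between arrays of the same number, however, both of these sums were lower with VPA in every pair. From replicate 1 to 3 the macrophage sum was 2008, 1356 and 1326 in VPA64h beside 2465, 1634 and 1517 in Ctrl64h. The hepatocyte sum was 1048, 1628 and 914 beside 1307, 1861 and 1088. These paired differences were not tested. Of the marker genes 0 of 18 hepatocyte and 0 of 19 macrophage genes passed both limits, and of 20 endothelial genes Esam rose and Emcn fell. Plvap, the brightest endothelial marker, weighs most in the endothelial sum and was 0.96 ± 0.14 lower (adjusted p = 9.03e-05), under the 2-fold limit. The median log2 change of the 20 endothelial genes was -0.20. Without the fold limit 1 hepatocyte, 3 macrophage and 7 endothelial genes were lower, and 0, 0 and 3 were higher. Among all probe sets 11.2% were lower and 12.8% higher. Thy1 and Cd34, of 16 genes of bile duct, mesothelial and portal fibroblast cells, rose. Their part in the lower complement levels was not tested.

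Over the 14 arrays the levels of C1ra and C2 went together most closely (Pearson r = 0.959), followed by C2 with C4b (r = 0.923) and C2 with its neighbour Cfb (r = 0.894). These are descriptions over arrays that share groups and isolations. Among 3763 probe sets with a level and a span large enough to compare, the profile most like that of Serping1 was Iigp1 (r = 0.978), of C1ra Ifitm1 (r = 0.968), of C2 Lratd1 (r = 0.967), of C4b C4a (r = 0.963), of Cfb Adamtsl2 (r = 0.947) and of C1rl Tmem237 (r = 0.937). For Cd55 the highest value was 0.782, with Gpc3. Next in order came Gadd45b for Serping1 (r = 0.957), Dnajb9 for C1ra (r = 0.966), Il34 for C2 (r = 0.966), Itih4 for C4b (r = 0.952), Slc15a3 for Cfb (r = 0.939), Ccdc90b for C1rl (r = 0.932) and Hspb1 for Cd55 (r = 0.773).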

How the data were processed

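RNA of cultured mouse HSCs was hybridised to Affymetrix mouse whole-transcript arrays, 14 in 5 groups. The deposited values are log2 expression values that the authors made with RMA. The paper names GeneSpring GX and the submitters' processing notes Affymetrix Expression Console, and the version of the latter is not given in the sources used here. Values were used as deposited. The table holds 35557 probe sets, and the 23410 with at least 1 gene symbol were tested. Genes were named from probe sets with exactly 1 symbol. limma 3.58.1 in R 4.3.3 (lmFit and eBayes, two-sided, 9 residual and 6.52 prior degrees of freedom) fitted 5 group means, for 8 comparisons. The fit was tested on simulated data. The number of arrays limits the precision. The genes and lists were chosen with earlier results of these data known. Named genes are the 9 chosen genes, other complement genes called in any comparison, the 2 most similar profiles of each and the brightest 2 markers of each cell type list. Same-numbered arrays deviated together (residual correlation over 0.1 in every pair) for VPA4h with Ctrl4h (0.139 to 0.279), VPA64h with Ctrl64h (0.158 to 0.171) and VPA64h with Ctrl4h (0.107 to 0.18), the numbers being those of the labels. Older list symbols were updated through RefSeq synonyms. Alternatives covered the centring of arrays, repeated quantile normalisation, dim probe sets, the probe sets tested, the test and its settings, the replicate block and single arrays left out. The block within the compared groups alone was added after seeing the data.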

Additional observations from a re-analysis of the deposited data

Results flagged for a closer look

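The VPA effect differed between 64 and 4 h, by limma's test of the difference itself, for 3 of the 7 complement genes and 3 of the other 46. These shares stand beside 8.33% of all tested probe sets with a lower and 7.54% with a higher effect at 64 h, so that 3 of 46 is not above the general share. On the log2 scale the effect at 64 h minus that at 4 h was -0.91 for C1ra (adjusted p = 0.00548), -1.98 for Cfb (adjusted p = 0.000661) and -0.60 for Serping1 (adjusted p = 0.03). It was -0.66 for C1s1 (adjusted p = 0.0467), -1.13 for Colec10 (adjusted p = 0.0352) and -0.73 for Cd59b (adjusted p = 0.00768). The adjusted p stayed under 0.05 in all 22 alternatives with a test of this difference for C1ra and Cfb and in all 21 for Cd59b. It did so in 14 of 22 for Serping1 (highest 0.0831), 11 of 22 for C1s1 (highest 0.123) and 10 of 22 for Colec10 (highest 0.106). The losses included the test of all probe sets for each of these 3 genes and the omission of single arrays, among them VPA64h replicate 3 for all 3. Each of the 6 genes was lower with VPA at 64 h and within its error of the control at 4 h, apart from Cd59b, whose difference at 4 h was 0.16 ± 0.12. The signal of Cd59b was low, and this gene was not tested where dim probe sets were left out.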

How the results depend on the processing

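For the 7 complement genes 972 alternative values were computed, of which 962 kept their direction and their side of the limits, 9 no longer passed them, 1 came to pass them and 0 reversed. For the other complement genes these were 1672, 1619, 38, 15 and 0. In both together 69 values that passed no limit changed sign. Cfb fell with VPA at 64 h in all 17 alternatives. C4b, falling by 16 h, passed in 11 of 16, and its adjusted p was 0.105 with trend and robust settings and 0.0788 with all probe sets tested. Leaving out single arrays, the number of the 7 genes that rose between 16 and 64 h was 0 to 1, that fell between 4 and 64 h 1 to 3 (1 without Ctrl4h replicate 1), and that fell in the difference of VPA effects 1 to 2. Of the other complement genes 1 to 2 fell between 16 and 64 h, 0 to 2 with VPA at 64 h and 0 to 1 in the difference of effects. Of these, the 2 that fell between 16 and 64 h became 1 with arrays centred on the median, 0 centred on 10 housekeeping genes and 1 with the replicate block, where the numbers do not pair the arrays (residual correlation -0.139 to -0.0718). The block changed no other count of the 7 or the 46 genes past 1.5 times. Housekeeping centring gave 1 that rose and 10 that fell between 4 and 64 h, and 0 that fell with VPA at 64 h, and leaving out dim probe sets gave 1 that rose between 4 and 64 h. The 1 gene that fell in the difference of effects, Colec10, became 0 with trend and robust settings and 0 with all probe sets tested. The cause was not tested. Housekeeping centring moved the median of all probe sets by -0.31 between 4 and 16 h, 0.12 between 16 and 64 h, -0.19 between 4 and 64 h and -0.18 within VPA, and relative to it changes are as given. It changed the numbers of all probe sets that rose and fell by 16 h from 165 and 283 to 59 and 589, from 16 to 64 h from 1058 and 486 to 1338 and 376, by 64 h from 1564 and 868 to 1070 and 1272, within VPA from 1231 and 537 to 809 and 851, with VPA at 4 h from 203 and 130 to 288 and 91, and at 64 h from 234 and 268 to 311 and 206. Testing all probe sets of the table raised those that fell to 1078 (16 to 64 h), 1658 (4 to 64 h), 951 (within VPA) and 1154 (VPA64h against Ctrl4h), and those that rose with VPA at 64 h to 389. The low signal of Cd55 limits what change could be detected for it.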
